A study of Mus musculus with 123 samples.

Results

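Krüppel-like factors (KLFs) were followed through early mouse development with and without the transcription factors Oct4 (gene Pou5f1) and Sox2. The 9 genes examined were Klf2, Klf3, Klf4, Klf5, Klf6, Klf9, Klf10, Klf13 and Klf17, taken by symbol from the 29022 genes of the count table, and each was represented by 1 row. KLFs are zinc finger proteins that bind GC-rich and CACCC-containing DNA, some as activators and others as repressors that recruit CtBP or Sin3 corepressors. Klf2, Klf4 and Klf5 belong to the network that keeps mouse embryonic stem cells in the naive state, where Klf4 is a target of LIF and STAT3 signalling. Klf5 is also needed for both the trophectoderm (TE) and the inner cell mass (ICM) of the blastocyst, and Klf17 is a factor of the first cleavage stages.

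Transcripts were counted in 96 Ctrl and KO and 27 MWT embryos or isolated ICMs, 1 library each, in 16 groups. Ctrl embryos lacked the maternal copy of Pou5f1 or of Sox2, removed in the oocyte by Zp3-Cre, and kept an intact paternal allele. In KO embryos the zygotic copies were missing as well, which was read from the fluorescent reporters mKO2 and EGFP driven by the PGK promoter, and in MWT embryos the oocyte had supplied a wild-type gene. Ctrl and KO groups held 8 embryos each at the morula, early ICM and late ICM stages of both lines, and the MWT groups numbered, for Oct4, 7 at morula, 5 at early ICM and 8 at late ICM, and for Sox2, 7 at early ICM. The conditional alleles removed exons 2 to 5 of Pou5f1, and of Sox2 the stretch from upstream of its start into its 3′ UTR, so that 3′-end tags of Sox2 may fall outside the deleted part. Morulae were taken at E2.75. For ICMs, embryos taken at E2.5 were grown in KSOM medium containing 1 µM of the MEK inhibitor PD0325901 to the early (E3.75) or late (E4.5) blastocyst, from which the outer trophectoderm was removed by immunosurgery. Thus all ICM groups, controls included, were exposed to the inhibitor in culture and no morula group was, so stage, culture, inhibitor and dissection cannot be told apart in a comparison of ICM with morula. The labels of Oct4 MWT ICMs were at odds on stage between title and source name, and groups follow the title.

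The libraries held 525755 to 1344035 unique molecular identifiers (UMIs), with a median of 897407. Pou5f1 stood at 0 to 4.73 counts per 1000000 UMIs (CPM) in every Oct4-KO embryo and at 13.4 to 93.6 CPM in the Ctrl embryos of that line. Sox2 stood at 0 to 36.4 CPM in Sox2-KO embryos and did not reach the Ctrl range of the same stage in the ICMs, where Ctrl values began at 72.6 CPM, which checks the deletion only in so far as the counted tags lie within the deleted part. The summed level of 10 epiblast and ICM markers was 2621 to 5400 CPM in Oct4-Ctrl late ICMs and 3329 to 4629 CPM in Sox2-Ctrl late ICMs, and each marker was detected in every Ctrl group. That list contains Pou5f1 and Sox2 themselves, and shares Nanog, Fgf4, Tdgf1 and Prdm14 with the list of pluripotency genes used below.

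In mm10 coordinates the genes that carry most of the results are Klf2 (ENSMUSG00000055148, chr8:72319033-72321656), Klf4 (ENSMUSG00000003032, chr4:55527143-55532466), Klf5 (ENSMUSG00000005148, chr14:99298691-99315036) and Klf6 (ENSMUSG00000000078, chr13:5861482-5870394), and no other annotated gene overlaps them. Genes overlapping Klf3, Klf9 or Klf13 did not exceed a mean of 1.65 CPM. Promoters of Klf2, Klf4 and Klf6, all 3 with called KO changes, are shown first, since KLF proteins bind GC-rich sequence. RefSeq sequences of GRCm38.p6 covered 7 of the 9 members; the exceptions were Klf5 and Klf10. Klf2 (chr8:72318812-72319032, plus strand) and Klf4 (chr4:55532476-55532725, minus strand) were lower without Oct4, and Klf6 (chr13:5861239-5861481, plus strand) was higher in late ICMs without Oct4. Each sequence is given 5′ to 3′ along the gene's own strand and ends before both the RefSeq and the GENCODE transcript start, which left 221 bases for Klf2, 250 for Klf4 and 243 for Klf6. Capitals mark GC boxes, read as GGGCGG on the printed strand or CCGCCC where the box lies on the other.
Klf2: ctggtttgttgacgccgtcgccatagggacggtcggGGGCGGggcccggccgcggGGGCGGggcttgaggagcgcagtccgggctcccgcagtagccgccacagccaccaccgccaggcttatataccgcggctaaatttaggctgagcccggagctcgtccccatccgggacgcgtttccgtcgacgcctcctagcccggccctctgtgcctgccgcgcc
Klf4: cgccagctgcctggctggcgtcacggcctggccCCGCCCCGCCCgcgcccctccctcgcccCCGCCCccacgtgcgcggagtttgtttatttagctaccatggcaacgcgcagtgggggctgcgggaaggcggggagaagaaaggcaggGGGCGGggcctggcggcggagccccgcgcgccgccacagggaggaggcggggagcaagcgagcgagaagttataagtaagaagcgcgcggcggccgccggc
Klf6: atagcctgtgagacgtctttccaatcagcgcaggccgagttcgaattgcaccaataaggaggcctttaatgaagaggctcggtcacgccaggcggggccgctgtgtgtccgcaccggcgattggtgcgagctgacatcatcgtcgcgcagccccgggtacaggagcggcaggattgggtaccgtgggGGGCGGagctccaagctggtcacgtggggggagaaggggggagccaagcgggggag
In these sequences the GC box occurred 2 times for Klf2, 4 times for Klf4, where a pair of matches overlapped, and 1 time for Klf6. Of the members not shown, Klf3 had 5 matches in 117 bases, and in 250 bases Klf13 had 3, Klf17 had 2 and Klf9 had none. For scale, the motif was present in 32.72% of all 32817 windows of 250 bases before a RefSeq start. The shorter CACCC letters, also searched on both strands, were found before Klf3, Klf9, Klf13 and Klf17, and in 52.01% of all windows. The octamer ATGCAAAT, the classical Oct4-binding letters, was not found in the 7 sequences and was present in 1.6% of all windows. The CCAAT letters occurred 4 times before Klf6, 3 times before Klf9, 2 times before Klf13 and 1 time before Klf17, against 33.83% of windows with any. GC content of the full 250-base windows was 71.2% for Klf2, 74.0% for Klf4 and 64.8% for Klf6, above the median of 52.4%. Such matches describe the letters of these sequences only.

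The members differed widely in abundance (the map of group means). Because each molecule was counted once near its 3′ end, transcript length does not directly enter the CPM values. Other differences between genes, such as capture or mapping, were not measured, so levels of different genes compare only approximately. Klf5 was the most abundant member in every group, with group means from 624.7 CPM in Oct4-Ctrl morulae to 1443 CPM in Oct4-KO late ICMs. Klf17 was the least abundant member of the ICM groups, where its group means did not exceed 2.59 CPM. The 9 genes summed to a mean of 1308 CPM in Oct4-Ctrl morulae, the lowest group, and 2932 CPM in Oct4-Ctrl early ICMs, the highest. When the 16 groups were ranked by the mean level of a gene, the spread within groups was wide relative to the steps between them. For 7 members no pair of neighbouring groups differed by more than the sum of their SDs. Neighbours in such a ranking lie close by construction. Klf6 had 1 such step among its 15 neighbouring pairs, from Sox2-Ctrl morulae up to Oct4-MWT late ICMs. Klf13 also had 1 such step, from Oct4-Ctrl early ICMs up to Sox2-MWT early ICMs.

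**Figure D1:**
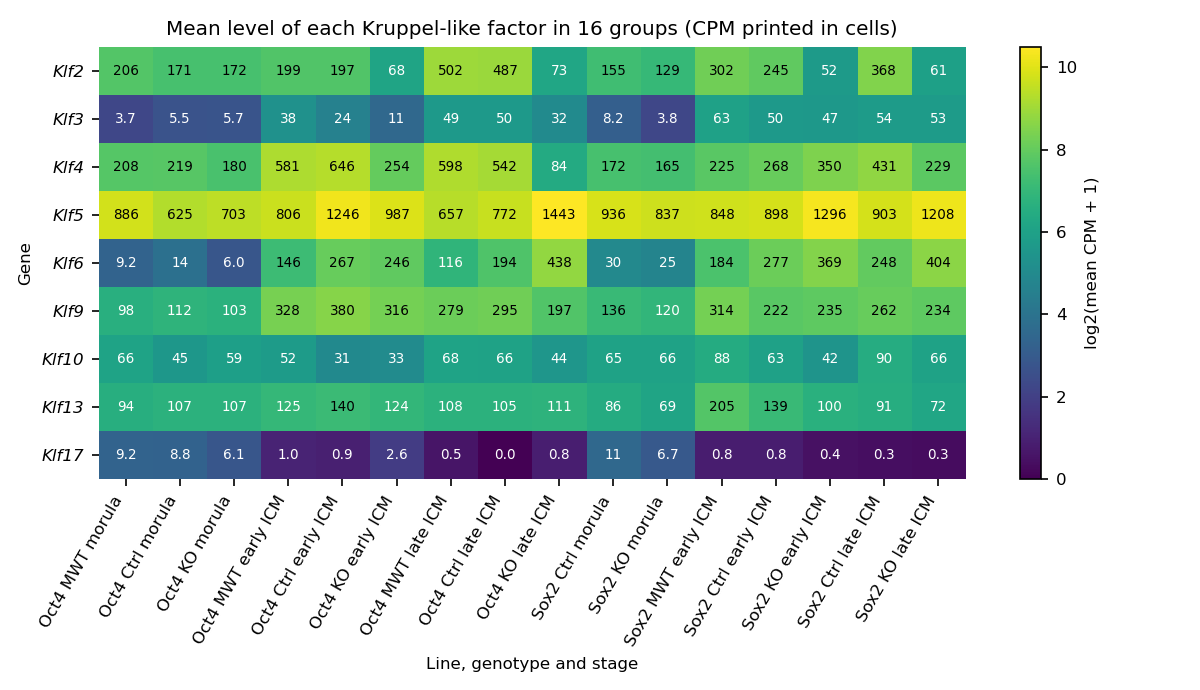
Group mean levels of the 9 Krüppel-like factor genes (rows) in the 16 groups (columns); each cell prints the mean CPM of its group and the colour gives log2(mean CPM + 1). Klf5 had the highest value in every column, Klf6 was low in the morula columns and high in the ICM columns, and Klf17 was low outside the morulae.

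The comparison of KO with Ctrl embryos asked which KLF transcripts depended on the zygotic Oct4 gene. A gene was called when its edgeR quasi-likelihood adjusted p was under 0.05 over the 14053 genes tested and its log2 fold change was at least 1 in size. In morulae no member was called, against 0.804% of all genes. Klf2, Klf4 and Klf5 overlapped between the groups. Klf2, for example, lay at 105 to 209 CPM in Ctrl and 115 to 271 CPM in KO morulae, a log2 fold change of 0.06 ± 0.23 (SE, n = 8 and 8, adjusted p = 0.97). At an unadjusted p under 0.05, which 12.1% of all genes had, there was 1 member in edgeR, Klf6, with a log2 fold change of -1.03 ± 0.49 and adjusted p = 0.375, and neither DESeq2 nor limma called any member. Klf6 was then barely detected, at 0 to 30.9 CPM in Ctrl morulae. The 95% interval of the log2 fold change was -0.41 to 0.53 for Klf2 and the wider -2.01 to -0.05 for Klf6.

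In early ICMs without Oct4, Klf2, Klf4 and the CtBP-binding repressor Klf3 were lower. These were 3 of the 9 members, and 6.11% of all genes were called lower. Klf2 stood at 156, 194 and 240 CPM (lowest, median and highest) in Ctrl and at 36.2, 55.3 and 139.5 CPM in KO early ICMs. The groups did not overlap, and the log2 fold change was -1.45 ± 0.25 (adjusted p = 3.26e-06). Each library is a whole ICM, so fewer cells of a type and less RNA per cell cannot be told apart here or below. Klf4 stood at 496, 639 and 1073 CPM in Ctrl and at 177, 261 and 353 CPM in KO early ICMs. Again the groups were separate, with a log2 fold change of -1.26 ± 0.24 (adjusted p = 2.26e-05). Klf3 was a low-abundance gene, at 7.29, 22.4 and 40.9 CPM in Ctrl and 2.22, 10.1 and 19.9 CPM in KO. Its groups overlapped, with 3 of 8 KO embryos below all Ctrl embryos, and its log2 fold change of -1.08 ± 0.35 (adjusted p = 0.0176) was near the minimum. The Klf3 call was lost without Ctrl replicate 4 (-0.93), Ctrl replicate 7 (-0.92), KO replicate 5 (-0.995) or KO replicate 11 (-0.95), and by limma on the log2 scale values of the authors (-0.76). Among the few embryos with shared replicate numbers it was also lost, at -0.19 with a block for the number and -0.23 without.

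No member was called higher in Oct4-KO early ICMs, where 4.77% of all genes were called higher. Klf5 spanned 1049 to 1474 CPM in Ctrl and 706 to 1621 CPM in KO, and Klf6 spanned 165 to 389 CPM in Ctrl and 82.2 to 418 CPM in KO. The KO ranges of both genes enclosed the Ctrl ranges. For Klf5, however, 6 of 8 KO ICMs lay below all Ctrl ICMs, with an uncalled edgeR log2 fold change of -0.26 (adjusted p = 0.273). Klf17 had 18 UMIs over the 8 KO ICMs and 6 over the 8 Ctrl ICMs, an adjusted p of 0.104 that became 0.0284 (2.16) without Ctrl replicate 6. The summed TE markers moved at the same time, with 5 of 14 markers called higher and 1 lower, and ran from 474 to 1798 CPM in Ctrl and from 1197 to 2352 CPM in KO early ICMs. Ascl2 was the 1 TE marker without a UMI in either group. Of 10 epiblast and ICM markers 8 were called lower, with sums of 1364 to 3231 CPM in Ctrl and 1062 to 1588 CPM in KO, and of 10 primitive endoderm markers tested 2 were higher and 3 lower, with sums of 789.9 to 1227 and 997.2 to 1604 CPM. The part of these cell types in the KLF values was not tested.

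In late ICMs without Oct4 the KLF set divided, with Klf2 and Klf4 lower and Klf5, Klf6 and Klf17 higher. Thus 2 of 9 members were called lower and 3 higher, against 8.85% and 9.25% of all genes, respectively. Klf2 stood at 328, 435 and 782 CPM in Ctrl and at 31.9, 78.8 and 117 CPM in KO late ICMs. Every KO embryo was below every Ctrl embryo, and the mean fell from 486.7 ± 150.7 to 73.3 ± 27.3 CPM (SD), a log2 fold change of -2.62 ± 0.25 (adjusted p = 8.33e-15). Klf4 stood at 392, 556 and 718 CPM in Ctrl and at 15.6, 65.8 and 190 CPM in KO late ICMs. Its groups were separate too, and its log2 fold change was -2.60 ± 0.26 (adjusted p = 2.07e-14).

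Klf5, in contrast, stood at 642, 726 and 1069 CPM in Ctrl and at 853, 1487 and 2161 CPM in KO late ICMs. Of the 8 KO embryos 6 lay above all Ctrl embryos, and the log2 fold change was 1.00 ± 0.16 (adjusted p = 3.63e-07), just on the minimum. The adjusted p stayed at or under 6.19e-06 when any 1 embryo was left out, but the fold change then ranged from 0.89 to 1.06 and passed the minimum in 5 of 16 refits. The Klf5 call held in 2 of 8 alternatives, at log2 fold changes of 0.90 to 1.02. It was short of the minimum with RLE scaling, library totals alone, DESeq2, limma, the MWT embryos in the fit and a block for the replicate label. Klf6, a widely expressed zinc finger activator, stood at 83.5, 144 and 407 CPM in Ctrl and at 224, 452 and 629 CPM in KO late ICMs. The groups overlapped, with 4 of 8 KO embryos above all Ctrl embryos, and the log2 fold change was 1.29 ± 0.29 (adjusted p = 0.000277). Klf17 was detected in 2 of 8 KO late ICMs, with 5 UMIs, and in no Ctrl late ICM. Over the groups, this was at least 1.48-fold higher than the floor of 3 counts, and its adjusted p of 0.0456 passed in 2 of 8 alternatives. It was lost with library totals alone (0.0508), with the MWT embryos in the fit (0.057), without the filter on low counts (0.0911), with thinned counts (0.104), in DESeq2 (0.209) and in limma (0.459), and whenever any 1 of the 8 Ctrl embryos, or KO replicate 1-5 or 2-2, was left out (1.93 to 2.87).

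The late ICM embryos carried 2-part replicate labels, and in the Oct4 line the first digit of the label separated the Klf6 values. Among embryos whose label began with 1, Klf6 was 83.5 to 150.4 CPM in 5 Ctrl and 223.8 to 319.9 CPM in 4 KO ICMs. Among those whose label began with 2, it was 243.5 to 406.7 CPM in 3 Ctrl and 584.8 to 628.9 CPM in 4 KO ICMs. Within either label set of the Oct4 line, the KO and Ctrl values of Klf6 did not overlap, whereas the pooled ranges did. In the Sox2 line they overlapped within both sets, and neither Ctrl nor KO values were separated by the digit. In the Oct4 line Klf5 was also apart within each set, at 641.5 to 832.6 against 853.1 to 1509 CPM in the first set and 694.3 to 1069 against 1465 to 2161 CPM in the second. Klf2 and Klf4 were separate in both sets of the Oct4 line, and Klf2 in both sets of the Sox2 line. The Ctrl values of Klf2 were themselves split by the digit, at 328.2 to 456.6 and 572.6 to 781.5 CPM in the Oct4 line and 217.1 to 332.1 and 390.5 to 518.1 CPM in the Sox2 line. With the label set as a block, the log2 fold change was 1.16 for Klf6 (adjusted p = 0.000407) and 0.94 for Klf5 (adjusted p = 1.66e-06), so that Klf5 was then short of the minimum. What the first digit stands for is not given in the labels.

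**Figure D2:**
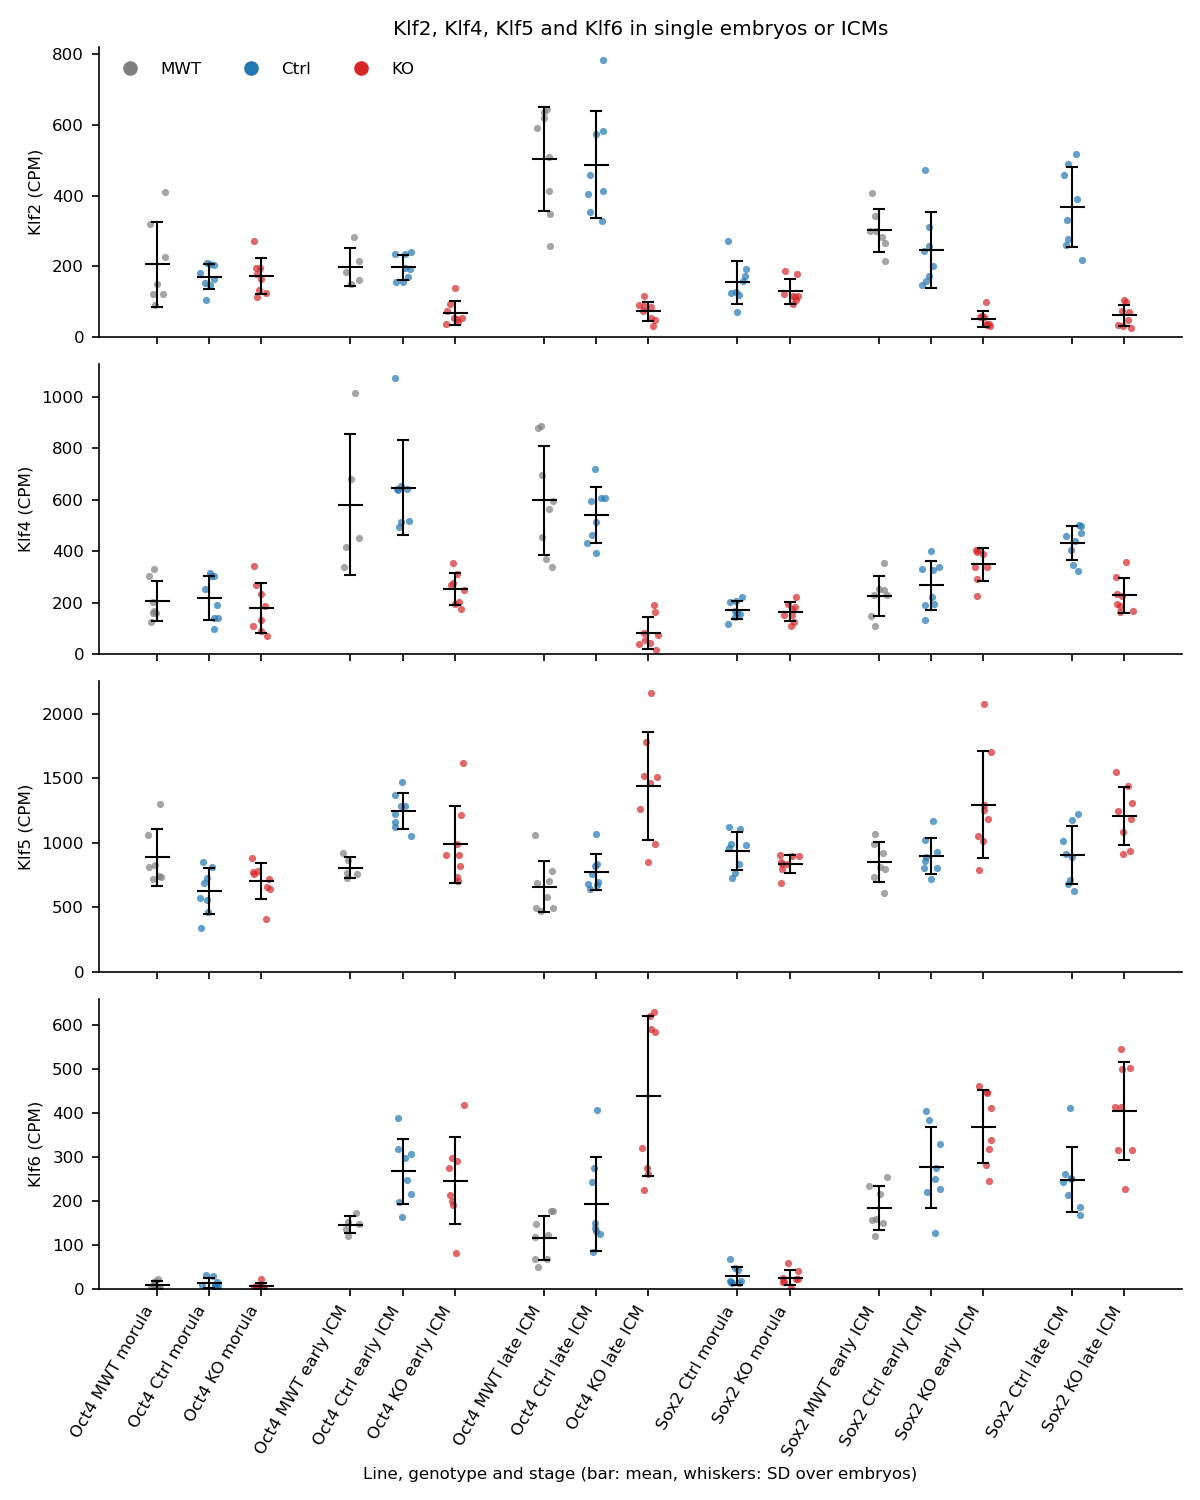
Levels of Klf2, Klf4, Klf5 and Klf6 in CPM (vertical axes) in each of the 16 groups (horizontal axes); points are single embryos or ICMs, bars are group means and whiskers 1 SD, with MWT in grey, Ctrl in blue and KO in red. In Oct4-KO late ICMs all Klf2 points (31.9 to 117 CPM) lay below all Ctrl points (328 to 782 CPM), while Klf5 points reached 2161 CPM.

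The other 4 members were not called in Oct4-KO late ICMs. Klf9, which together with Klf13 forms a Sin3-recruiting pair of GC-box binders, spanned 175.1 to 438.0 CPM in Ctrl and 127.3 to 257.6 CPM in KO, a log2 fold change of -0.47 with adjusted p = 0.00899 that did not reach the fold minimum. Klf3 spanned 22.0 to 67.3 CPM in Ctrl and 10.5 to 65.2 CPM in KO, with an adjusted p of 0.175. Klf10, a gene induced early by TGFβ, spanned 21.9 to 121.7 CPM and 23.3 to 78.7 CPM, and Klf13 spanned 67.0 to 148.4 CPM and 79.2 to 178.1 CPM. The ranges of these 4 genes overlapped. Markers of other cell types moved strongly in the same embryos. Of 14 TE markers 11 were called higher and none lower, and their summed level was 487 to 1883 CPM in Ctrl and 2802 to 5570 CPM in KO late ICMs, without overlap. Of 10 primitive endoderm markers tested 2 were called higher and 6 lower, with sums of 369 to 1875 and 1006 to 1775 CPM. All 10 epiblast and ICM markers were lower, from 2621 to 5400 CPM in Ctrl to 445 to 1032 CPM in KO. Every marker of the 3 lists had at least 1 UMI in both late ICM groups, and the part of these cell types in the KLF changes was not tested.

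The same comparison in the Sox2 line asked which members depended on zygotic Sox2. In Sox2-KO morulae no member was called, against 0.00712% of all genes, and 1 member had an unadjusted edgeR p under 0.05, against 4.4% of all genes, namely Klf3 (log2 fold change -1.06 ± 0.44, adjusted p = 1.0). DESeq2 and limma called no member either. Klf3 lay at 0.969 to 14.2 CPM in Ctrl and 0 to 9.64 CPM in KO morulae, and Klf2 lay at 70.8 to 271 and 94.4 to 188 CPM.

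In Sox2-KO early ICMs the member that fell was Klf2, 1 of 9 where 1.69% of all genes were called lower. It stood at 146, 222 and 473 CPM in Ctrl and at 33.0, 47.8 and 99.8 CPM in KO. The groups were separate, and the log2 fold change was -2.14 ± 0.25 (adjusted p = 8.19e-10). Klf4 stood at 134, 275 and 401 CPM in Ctrl and at 228, 365 and 407 CPM in KO early ICMs. Its ranges overlapped, and its log2 fold change of 0.46 had a 95% interval of -0.01 to 0.93 (adjusted p = 0.267). No member was called higher, where 1.57% of all genes were. Klf5 was 718, 874 and 1169 CPM in Ctrl and 786, 1218 and 2079 CPM in KO, a log2 fold change of 0.60 ± 0.16 with adjusted p = 0.0097 that was below the fold minimum. Klf6 was 127, 262 and 405 CPM in Ctrl and 246, 376 and 461 CPM in KO, and the ranges overlapped. TE markers summed to 213.5 to 773 CPM in Ctrl and 1093 to 2700 CPM in KO, with 6 of 14 called higher and 1 lower, and epiblast and ICM markers to 1463 to 4563 and 1115 to 1713 CPM, with 6 of 10 lower. Primitive endoderm markers summed to 373 to 1145 and 898.7 to 1145 CPM, with 1 of 10 higher. Their part in the KLF values was not tested.

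In Sox2-KO late ICMs Klf2 was again the 1 member called lower, against 3.61% of all genes. It stood at 217, 361 and 518 CPM in Ctrl and at 27.0, 58.9 and 106 CPM in KO. No KO embryo reached the Ctrl range, and the log2 fold change was -2.47 ± 0.25 (adjusted p = 1.05e-12). Klf4 stood at 325, 451 and 503 CPM in Ctrl and at 164, 211 and 359 CPM in KO late ICMs. Although 7 of 8 KO embryos were below all Ctrl embryos, its log2 fold change of -0.80 ± 0.24 (adjusted p = 0.0138) was smaller than the minimum for a call. No member was called higher, where 3.34% of all genes were. Klf5 was 626 to 1222 CPM in Ctrl and 915 to 1549 CPM in KO (log2 fold change 0.53 ± 0.16, adjusted p = 0.0168). Klf6 was 167 to 412 CPM in Ctrl and 227 to 545 CPM in KO (0.80 ± 0.29, adjusted p = 0.0506). Both overlapped between the groups. TE markers summed to 293 to 3670 CPM in Ctrl and 1008 to 3157 CPM in KO, with 4 of 14 called higher, and epiblast and ICM markers to 3329 to 4629 and 1252 to 2376 CPM, with 8 of 10 lower. Primitive endoderm markers summed to 566.5 to 2574 and 753.5 to 1983 CPM, with 2 of 10 lower. Their part in these values was not tested.

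**Figure D3:**
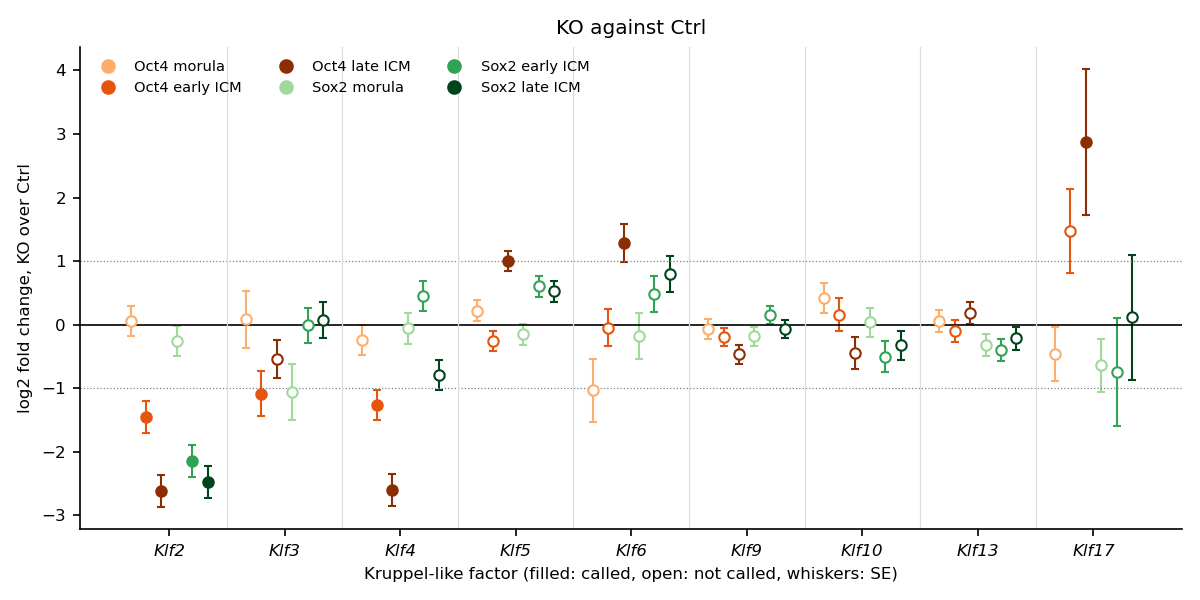
Log2 fold change of KO against Ctrl (vertical axis, ± SE from edgeR) for the 9 members (horizontal axis) in 6 comparisons (colours). Filled points were called and dotted lines mark a log2 fold change of 1 in either direction. Klf2 was called in all 4 ICM comparisons, between -1.45 and -2.62, and Klf4 in the 2 Oct4 ICM comparisons, while no point was filled in the morula comparisons.

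Whether loss of Oct4 and loss of Sox2 acted differently on a member was tested as the difference of the KO effects, Oct4 minus Sox2, in 1 model. In morulae no member differed, with 0 at an unadjusted edgeR p under 0.05 and 0 in DESeq2 and limma, against 0.356% of all genes. In early ICMs the difference was called for Klf4, 1 of 9 members against 5.52% of all genes, at -1.72 ± 0.33 on the log2 scale (adjusted p = 0.000158). In late ICMs Klf4 was again the 1 member called, against 6.3% of all genes, at -1.80 ± 0.34 (adjusted p = 0.000107). In early ICMs the difference set a fall of Klf4 without Oct4 (-1.26) against an uncalled positive value without Sox2 (0.46), and in late ICMs a larger fall (-2.60) against a smaller negative value (-0.80). The Ctrl levels of Klf4 in the lines were themselves different in early ICMs, at 496 to 1073 CPM in the Oct4 line and 134 to 401 CPM in the Sox2 line, whereas in late ICMs they overlapped at 392 to 718 and 325 to 503 CPM. For Klf2, no difference was called. The interval of the difference ran from -0.0005 to 1.39 in early ICMs (adjusted p = 0.232) and from -0.84 to 0.55 in late ICMs (adjusted p = 0.878), and such widths do not show that the effects were equal. Klf5 had a difference of -0.86 ± 0.23 in early ICMs (adjusted p = 0.00799), under the minimum, and 0.48 in late ICMs (adjusted p = 0.2). For Klf6 in late ICMs the difference was 0.49 (adjusted p = 0.532). In early ICMs the difference between lines was also called lower for 3 and higher for 1 of 10 epiblast and ICM markers, lower for 2 and higher for 1 of 14 TE markers, and lower for 2 and higher for 1 of 10 primitive endoderm markers. In late ICMs it was lower for 6 and higher for 1 epiblast and ICM markers, higher for 5 TE markers, and lower for 3 and higher for 1 primitive endoderm markers, and their part was not tested.

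The dependence on Oct4 also changed with stage. From morula to early ICM the KO effect on Klf2 moved by -1.51 ± 0.34 (adjusted p = 0.00262), and Klf2 was the 1 member called, against 3.29% of all genes. Klf4 moved by -1.02 with an adjusted p of 0.0586. From early to late ICM 4 of 9 members were called, against 3.11% of all genes. The KO effects on Klf2 (-1.17 ± 0.35, adjusted p = 0.0332) and Klf4 (-1.34 ± 0.34, adjusted p = 0.0105) became more negative. Those on Klf5 (1.26 ± 0.23, adjusted p = 0.000221) and Klf6 (1.33 ± 0.41, adjusted p = 0.0416) became more positive. The Klf6 value was no longer called in DESeq2 (adjusted p = 0.0741) or with scaling by library totals (0.0583). In the Sox2 line the KO effect on Klf2 moved by -1.88 ± 0.34 from morula to early ICM (adjusted p = 0.000568), the 1 member called against 0.882% of all genes. From early to late ICM no member was called in that line by edgeR, where 0.0427% of all genes were, with 1 at an unadjusted p under 0.05, against 10.6% of all genes. That member was Klf4, at -1.25 ± 0.33 with adjusted p = 0.109 in edgeR and called by DESeq2 (-1.27, adjusted p = 0.0425). limma called none. Each pair of stage differences shares the early ICM embryos. Cell type markers moved in the same contrasts. From morula to early ICM in the Oct4 line the KO effect was called lower for 5 of 10 epiblast and ICM markers and higher for 2 of 14 TE markers and 1 of 10 primitive endoderm markers, and the same counts held from early to late ICM. In the Sox2 line from morula to early ICM it was lower for 2 epiblast and ICM markers and higher for 3 TE markers, and from early to late ICM no marker of the 3 lists was called. Their part in the differences of the KLF genes was not tested.

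The make-up of the KLF transcripts was set beside their sum. In Oct4 early ICMs the sum was 2932 ± 380 CPM in Ctrl and 2041 ± 338 CPM in KO (SD), a gap larger than either SD, with ranges that overlapped. In Oct4 late ICMs the 9 genes summed to 2510 ± 548 CPM in Ctrl and 2422 ± 680 CPM in KO (SD). Of this sum Klf2 took 19.2 ± 2.80% in Ctrl and 3.22 ± 1.49% in KO, and Klf4 took 21.7 ± 2.08% and 3.42 ± 2.12%. Klf5 took 31.2 ± 3.96% in Ctrl and 59.6 ± 4.58% in KO, and Klf6 took 7.54 ± 3.25% and 17.5 ± 3.35%. The summed share of Klf2, Klf4 and Klf5 was 72.2 ± 3.10% in Ctrl and 66.3 ± 2.67% in KO. The median ratio of Klf5 to Klf4 was 1.46 in Ctrl, with a highest value of 1.76, and 19.7 in KO, with a lowest value of 7.99. In Sox2 late ICMs the same ratio had medians of 2.36 in Ctrl and 5.33 in KO, and its lowest KO value of 3.48 lay above the highest Ctrl value of 2.90. In Sox2 early ICMs, where Klf4 was not called, it was the ratio of Klf4 to Klf2 that stood apart, with 0.849 to 2.26 in Ctrl and 3.72 to 11.4 in KO. These ratios rest on the levels above and are given as a description.

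**Figure D4:**
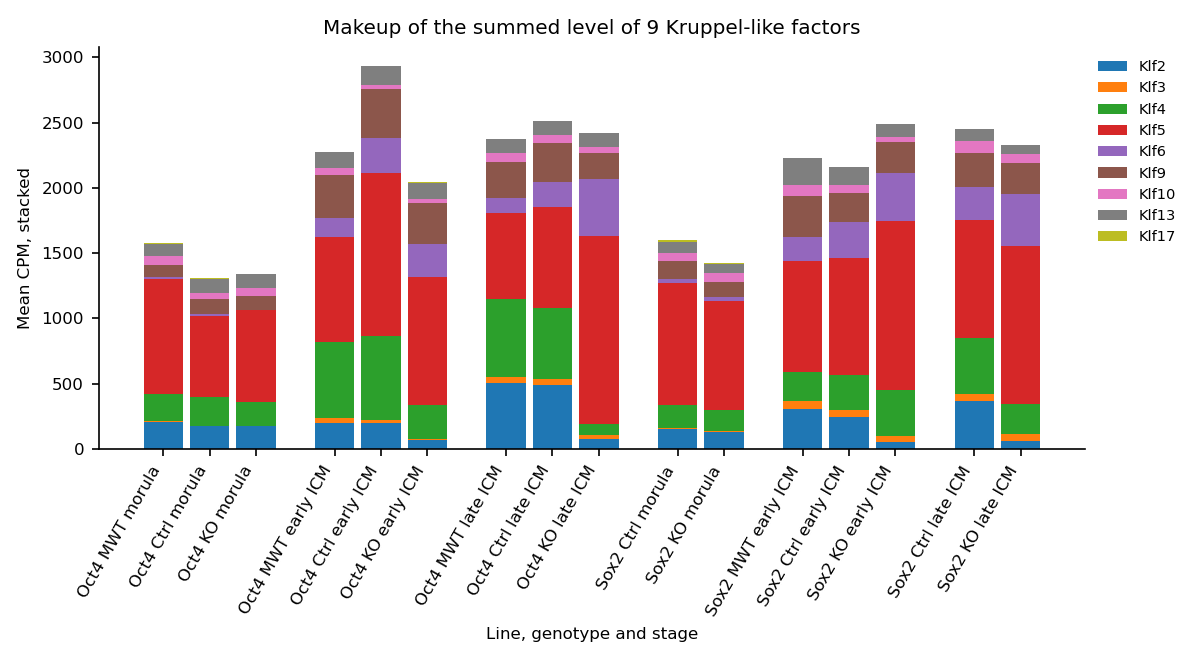
Stacked bars of the mean CPM of the 9 members (vertical axis, linear from 0) in each of the 16 groups (horizontal axis), with 1 colour per gene. The stacks of Oct4-Ctrl and Oct4-KO late ICMs were of like height, 2510 and 2422 CPM, but Klf5 took 31.2% of the summed level in Ctrl and 59.6% in KO.

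Stages were also compared within the Ctrl embryos. From morula to early ICM in the Oct4 line Klf3, Klf4, Klf6 and Klf9 rose, 4 of 9 members against 14.1% of all genes, and Klf17 fell, against 14.9%. Klf6 was the largest riser, from 0, 8.98 and 30.9 CPM in morulae to 165, 273 and 389 CPM in early ICMs. The groups were far apart, with a log2 fold change of 4.20 ± 0.37 (adjusted p = 1.51e-17). Klf9 rose from 78.5, 110.8 and 151.9 CPM to 285.5, 364.9 and 513.7 CPM (1.65 ± 0.15, adjusted p = 7.65e-17), and Klf4 from 99.9, 223 and 316 CPM to 496, 639 and 1073 CPM (1.44 ± 0.24, adjusted p = 2.8e-07), both without overlap. Klf3 rose from 1.07, 4.54 and 11.3 CPM to 7.29, 22.4 and 40.9 CPM, with 6 of 8 early ICMs above all morulae (1.95 ± 0.38, adjusted p = 8.31e-06). Klf17 fell from 69 UMIs over 8 morulae to 6 UMIs over 8 early ICMs (-3.23 ± 0.57, adjusted p = 1.48e-06). Klf5 also did not overlap between the stages, at 339 to 852 and 1049 to 1474 CPM, but its log2 fold change was 0.88 (adjusted p = 2.81e-06) and under the minimum. Klf2 was at 105 to 209 and 156 to 240 CPM, with a log2 fold change of 0.09 and an interval of -0.37 to 0.56.

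The Sox2 line gave 2 risers, Klf3 and Klf6, against 17.2% of all genes called higher, and again Klf17 fell, against 14.7%, so that these shares of the 9 members were near those of all genes. Klf6 rose from 14.1, 18.3 and 67.7 CPM to 127, 262 and 405 CPM (3.19 ± 0.33, adjusted p = 3.49e-14). Klf3 rose from 0.969, 9.46 and 14.2 CPM to 20.8, 47.5 and 87.4 CPM (2.55 ± 0.33, adjusted p = 1.73e-10). Klf17 fell from 92 to 6 UMIs (-3.56 ± 0.56, adjusted p = 6.68e-08). The stages did not overlap for these 3 genes. Klf9, at 105.1 to 160.1 and 157.7 to 320.0 CPM, and Klf4, at 116 to 222 and 134 to 401 CPM, had log2 fold changes of 0.64 (adjusted p = 0.000137) and 0.57 (adjusted p = 0.0389), both short of the minimum. Whether the stage change differed between the lines was not tested. Cell type markers moved in the same stage comparisons. Epiblast and ICM markers were called higher in 10 of 10 cases in the Oct4 line and 9 of 10 in the Sox2 line, and their sums went from 370 to 636 CPM in morulae to 1364 to 3231 CPM in early ICMs of the Oct4 line and from 263 to 778 CPM to 1463 to 4563 CPM in the Sox2 line. Of 10 primitive endoderm markers tested 6 were higher and 1 lower in each line. Of 14 TE markers 4 were lower and 2 higher in the Oct4 line, and 8 were lower in the Sox2 line, where their sums were 1017 to 1833 CPM in morulae and 213.5 to 773 CPM in early ICMs. Elf5 had no UMI in the morulae and Ascl2 none in the early ICMs of either line, and the part of cell types in the KLF stage values was not tested.

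From early to late ICM the Oct4 Ctrl line gained Klf2, Klf3 and Klf10, 3 of 9 members against 9.52% of all genes called higher. Klf2 rose from 156 to 240 CPM in early ICMs to 328 to 782 CPM in late ICMs, without overlap (1.35 ± 0.24, adjusted p = 2.29e-06). Klf10 rose from 17.3, 27.6 and 44.8 CPM to 21.9, 63.7 and 121.7 CPM (1.14 ± 0.25, adjusted p = 0.000193), and Klf3 from 7.29, 22.4 and 40.9 CPM to 22.0, 56.5 and 67.3 CPM (1.11 ± 0.31, adjusted p = 0.00257), both with overlapping ranges. Klf17 was the 1 member called lower, against 6.04% of all genes, with 6 UMIs in early ICMs and 0 in late ICMs. It was at least 1.57-fold lower against the group floor of 3 counts. The Klf17 call was lost in DESeq2 (adjusted p = 0.218), with the MWT embryos in the fit (0.0537), without the filter on low counts (0.0833) and in limma, and the Klf10 call was lost in limma. Klf5 was 1049 to 1474 CPM in early and 642 to 1069 CPM in late ICMs, with a log2 fold change of -0.64 (adjusted p = 0.00108) under the minimum. In the Sox2 Ctrl line edgeR called no member between early and late ICM, against 2.9% of all genes, 4 members had an unadjusted p under 0.05 against 21% of all genes, and DESeq2 and limma called none. Klf13 came nearest by adjusted p, at 111.7 to 170.2 CPM in early and 55.3 to 144.9 CPM in late ICMs (-0.65, adjusted p = 0.0119). From early to late ICM, epiblast and ICM markers were higher for 6 of 10 in the Oct4 line and 0 of 10 in the Sox2 line, primitive endoderm markers for 5 and 4 of 10 (with 2 lower in the Oct4 line), and TE markers for 1 and 5 of 14 (with 1 lower in the Oct4 line).

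**Figure D5:**
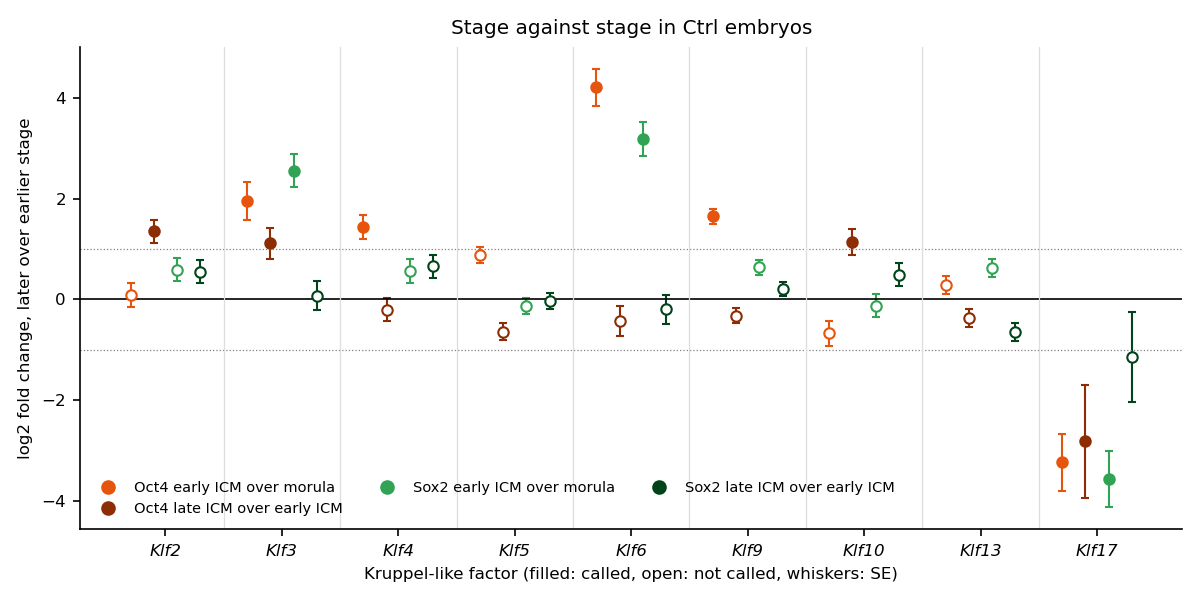
Log2 fold change between stages in Ctrl embryos (vertical axis, ± SE from edgeR) for the 9 members (horizontal axis) in 4 comparisons (colours: early ICM against morula and late against early ICM, in the Oct4 and Sox2 lines). Filled points were called and dotted lines mark a log2 fold change of 1 in either direction. Klf6 was the highest from morula to early ICM, at 4.20 and 3.19, and Klf17 the lowest, at -3.23 and -3.56.

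Loss of the maternal gene alone was examined by comparing MWT with Ctrl embryos, in an edgeR fit over 13923 genes. No member was called in Oct4 morulae, early ICMs or late ICMs, where 0.0646%, 0.373% and 0.797% of all genes were, respectively, or in Sox2 early ICMs, where 2.58% were. At an unadjusted p under 0.05 there were 2 members in Oct4 morulae, 4 in Oct4 early ICMs, 1 in Oct4 late ICMs and 3 in Sox2 early ICMs, of 9 each, beside 7.22%, 9.52%, 13.9% and 20.5% of all genes, respectively. DESeq2 called none in the 4 comparisons. Klf2 was at 0.29 ± 0.25, -0.01 ± 0.28 and -0.02 ± 0.24 on the log2 scale in the 3 Oct4 comparisons and 0.32 ± 0.25 in the Sox2 comparison, with MWT relative to Ctrl. Klf4 lay between -0.23 and 0.07 in the 4. The lowest adjusted p values belonged to Klf13 (0.58, adjusted p = 0.0304) and Klf9 (0.52, adjusted p = 0.0307) in Sox2 early ICMs, both short of the fold minimum, and 6 of 7 MWT ICMs were above all Ctrl ICMs for Klf13. Klf5 in Oct4 early ICMs was lower in all 5 MWT than in the 8 Ctrl ICMs, with means of 806.5 and 1246 CPM and an adjusted p of 0.0686. The stage labels of these Oct4 MWT ICMs disagreed, as stated above. Cell type markers were called in 2 of the MWT comparisons. In Oct4 late ICMs 6 of 10 primitive endoderm markers were lower in MWT, and 1 of 13 TE markers was higher. In Sox2 early ICMs 2 of 13 TE and 1 of 10 primitive endoderm markers were higher, and of 10 epiblast and ICM markers 2 were higher and 2 lower. Their part in the KLF values was not tested.

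Other genes of the family were examined in the same fits. The shares of all genes called in these comparisons are those given above. Of the 8 remaining Klf genes 6 passed the filter on low counts. Klf8, a repressor related to Klf3, was the 1 called in Oct4-KO late ICMs, from 99.8 ± 33.2 CPM in Ctrl to 21.2 ± 13.5 CPM in KO (log2 fold change -2.12 ± 0.23, adjusted p = 7.46e-13). No other Klf gene was called in Oct4-KO early ICMs. In Sox2-KO ICMs Klf15 was the 1 called, higher by 1.97 ± 0.54 in early (adjusted p = 0.0122) and 1.92 ± 0.53 in late ICMs (adjusted p = 0.00696), at means of 6.97 and 8.19 CPM in KO. Klf15 was likewise higher in Sox2-MWT than Sox2-Ctrl early ICMs (1.85, adjusted p = 0.0371), whereas Klf11 was lower there (-1.60, adjusted p = 0.000774). Of 9 Sp factors, zinc finger relatives that bind GC boxes, 6 were tested and Sp9 was the 1 called in a KO comparison, with 1 UMI against 20 in Oct4-KO and Ctrl early ICMs and 0 against 9 in late ICMs. Of 10 cofactors and ubiquitin ligases of KLF proteins, the deacetylase gene Hdac1 was the 1 called in a KO comparison, lower in Oct4-KO late ICMs at 139.8 ± 17.6 against 352.8 ± 64.1 CPM (-1.22 ± 0.13, adjusted p = 4.49e-13). The median log2 fold change of the 9 members was -0.19 in Oct4 early and -0.45 in Oct4 late ICMs, and -0.01 and -0.06 in the Sox2 line, beside 0.01, -0.01, -0.01 and 0.00 over all genes.

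The LIF and STAT3 pathway, which acts upstream of Klf4 in embryonic stem cells, was represented by 8 genes, and 1 of them, the receptor gene Il6st, was lower in all 4 KO ICM comparisons. In Oct4-KO early ICMs 2 of the 8 were called lower and 1 higher, against 6.11% and 4.77% of all genes. Il6st, which encodes the shared receptor chain gp130, had 1 UMI over 8 KO ICMs and 130 over 8 Ctrl ICMs. The receptor gene Il6ra had a log2 fold change of -1.54 ± 0.39 and the kinase gene Jak2 of 1.21 ± 0.46. In Oct4-KO late ICMs 3 were called lower and 1 higher, against 8.85% and 9.25% of all genes. The receptor genes Lifr (-2.94 ± 0.53) and Il6st (-3.88 ± 0.44) and the feedback inhibitor gene Socs3 (-2.04 ± 0.49) were lower, and the ligand gene Lif was higher (2.34 ± 0.45). In Sox2-KO ICMs Lifr and Il6st were called lower at both stages, with log2 fold changes of -3.42 ± 0.67 and -2.75 ± 0.43 in early and -2.72 ± 0.54 and -3.01 ± 0.38 in late ICMs, and Socs3 was called lower in late ICMs (-2.16 ± 0.59). Of all genes 1.69% were called lower in early and 3.61% in late Sox2-KO ICMs. The KO effect on Socs3 was not shown to differ between the Sox2 ICM stages (-1.78, adjusted p = 0.566). Between the Oct4 ICM stages the edgeR difference in KO effect was called for none of the 8 genes. Adjusted p was 0.0683 for Lifr, 0.0901 for Lif, 0.534 for Il6ra, 0.713 for Jak2 and 0.862 for Socs3.

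Of 12 listed pluripotency genes, 5 were lower in Oct4-KO early ICMs, against 6.11% of all genes, namely Esrrb (-2.20), Tfcp2l1 (-1.04), Prdm14 (-1.86), Tdgf1 (-4.11) and Fgf4 (-2.10). In Oct4-KO late ICMs 7 were lower, against 8.85% of all genes, and these 7 were Nanog (-1.19), Esrrb (-3.61), Zfp42 (-1.02), Prdm14 (-3.88), Dppa3 (-1.01), Tdgf1 (-5.71) and Fgf4 (-4.35). Prdm14, Tdgf1 and Fgf4 were the 3 called lower in Sox2-KO early ICMs, against 1.69% of all genes, and also in Sox2-KO late ICMs, against 3.61%. None of the 12 was called higher in the 4 comparisons. The median log2 fold change of the 12 was -0.85 in early and -1.02 in late Oct4 ICMs, and -0.12 and -0.09 in those of the Sox2 line. The KO effect, on the log2 scale, was lower in the Oct4 than the Sox2 line for Esrrb (-1.65) and Tdgf1 (-2.92) in early ICMs, and for Nanog (-1.27), Esrrb (-3.08), Zfp42 (-1.04), Dppa3 (-1.10) and Tdgf1 (-4.27) in late ICMs. Between stages it was lower in Oct4 early ICMs than morulae for Esrrb (-1.49), Tdgf1 (-5.001) and Fgf4 (-2.25), in Oct4 late than early ICMs for Nanog (-1.495), Esrrb (-1.40) and Fgf4 (-2.25), and in Sox2 early ICMs than morulae for Fgf4 (-2.43). Of the other lists, differences in KO effect were called for Klf8 (-1.82 between Oct4 late and early ICMs, and -1.58 between the Oct4 and Sox2 lines in late ICMs), for Klf16 (1.25) between the lines in late ICMs, for Klf15 and Il6st, which were at a few UMIs in some of these groups, and Lifr (2.73) between the lines in early ICMs, and for Il6st (-3.48) between Sox2 early ICMs and morulae. Tdgf1 (-1.15) and Fgf4 (-2.05) were lower in Sox2-MWT than Sox2-Ctrl early ICMs.

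The same lists were read in the stage comparisons of Ctrl embryos, as log2 fold changes with adjusted p under 0.05 or as UMIs summed over a group. From morula to early ICM, 14.1% of all genes were called higher and 14.9% lower in the Oct4 line, and 17.2% and 14.7% in the Sox2 line. From early to late ICM these shares were 9.52% and 6.04% in the Oct4 line, and 2.9% in either direction in the Sox2 line. From morula to early ICM in the Oct4 line, Klf7 rose (2.13) and Klf16 fell (-1.30) among the other Klf genes, and in the Sox2 line Klf7 rose (1.49). Of the Sp factors Sp6 fell (-1.21) in the Oct4 line and Sp3 rose (1.01) in the Sox2 line, and Sp9 went from 0 to 20 UMIs and from 1 to 40 UMIs, respectively. The corepressor gene Ctbp2 (1.12) and the ubiquitin ligase genes Wwp1 (1.63) and Fbxw7 (2.28) rose in the Oct4 line, and Fbxw7 (2.04) rose in the Sox2 line. Of the 8 LIF and STAT3 genes, Il6st went from 2 to 130 UMIs in the Oct4 line and rose by 4.28 in the Sox2 line, while Lifr (4.67 and 4.44) and Stat3 (1.60 and 1.57) rose in both. Lif (-1.26 and -1.09), Jak2 (-1.49 and -1.28) and Socs3 (-1.77 and -3.59) fell in both. Of the 12 pluripotency genes, Nanog (1.45 and 1.32), Prdm14 (2.49 and 1.37), Tdgf1 (2.60 and 2.69) and Fgf4 (2.44 and 4.21) rose in both lines, Esrrb (1.02), Tfcp2l1 (1.01) and Zfp42 (1.28) rose in the Oct4 line, and Nr5a2 (-1.07) and Dppa3 (-1.28) fell in the Sox2 line. Gbx2 went from 28 to 3 UMIs in the Oct4 line and from 53 to 3 UMIs in the Sox2 line. From early to late ICM in the Oct4 line, Klf15 (2.40), Sp2 (1.05), the corepressor gene Sin3b (1.12), Lifr (1.85), Il6st (1.06), Socs3 (2.20) and Fgf4 (1.57) rose, and in the Sox2 line Il6st (1.15) and Socs3 (2.48) rose.

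Lastly, the genes most like each member were found by Pearson's r over the 16 group means of log2 CPM, leaving out genes whose mean stayed under 20 CPM in all groups. These values describe 16 points that share libraries and stages. For Klf2 the closest were Zfp518b (r = 0.953), Dock5 (0.935) and Tmem123 (0.925), and for Klf4 they were its relative Klf8 (0.908), Zmym4 and Atrx. Tollip (0.884), Mon2 and Cd55 were closest to Klf5, and Fabp5 (0.978), Mlec and Pacs2 to Klf6. Sirt3 (0.981), Ctnnbip1 and Tbc1d9b were closest to Klf3, and Ncor1 (0.960), Enc1 and Fxr1 to Klf9. For Klf10 they were Sec24b (0.868), Flna and Gse1, for Klf13 Psmb6, Tmem70 and Lnpep, and for Klf17 Eif2b1 (0.984), Pwp1 and Gcsh. Among the members, the most opposed pair was Klf3 and Klf17 (r = -0.941), and the most similar was Klf6 and Klf9 (0.867). For Klf2, r was 0.510 with Klf4 and -0.649 with Klf5.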

How the data were processed

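Single-embryo libraries enriched for 3′ ends were prepared from 96 Ctrl and KO and 27 MWT mouse embryos or ICMs, each its own replicate; which embryos shared a litter is not given in the sources used here. According to the published methods, reads were processed by the authors with UMI-tools (UMI extraction) and Cutadapt (poly-A trimming), mapped on mm10 using TopHat2 and GENCODE vM23, and turned into molecules per gene by featureCounts and TRUmiCount, so the deposited counts are whole UMIs per gene without normalization. Whether strand was used in counting is not stated. A second deposited table holds rlog values on a log2 scale, made by the authors with DESeq2 for 15747 genes, and served for 1 alternative. ERCC spike-ins were added to the libraries by the authors and were not used here.

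The 9 members, the gene lists and the tests were chosen with earlier results of these data known. Levels are counts per 1000000 UMIs of the library. Counts of the 96 Ctrl and KO embryos were fitted together with edgeR 4.0.16 (R 4.3.3; TMM scaling, quasi-likelihood test, group means model), after a filter that kept a gene if, at 1 stage or more, 50% of embryos or more had a UMI (14053 genes, all 9 members among them). MWT embryos entered a second fit of all groups with 13923 genes. p-values were adjusted by the Benjamini-Hochberg method over all genes tested, and a call required an adjusted p under 0.05 and a log2 fold change of at least 1. Differences in KO effect were contrasts in the same model. Standard errors were taken from the log2 fold change and its F statistic, with 95% intervals. A group without a UMI was set against a floor of 3 counts over the group, which covers counting error only. No 2 libraries of a group were as alike as sampling noise allows, so each counted as 1 replicate.

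The genes named were the members, the called genes of lists of other Klf genes, Sp factors, KLF cofactors, the LIF and STAT3 pathway and pluripotency genes, and for each member the 3 genes most like it over the 16 groups by log2 of CPM plus 1, passing over predicted genes and clones. Alternatives were DESeq2 1.42.0, limma 3.58.1 on the rlog values, other scalings and filters, thinned counts, a fit of all embryos, blocks, and each embryo left out in turn. Gene positions and promoter sequences came from GENCODE and RefSeq annotation of GRCm38. The scripts were tested on simulated data. Chromatin and imaging data of the study were not analysed here.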

Additional observations from a re-analysis of the deposited data

Results flagged for a closer look

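Of 143 sets of values examined, chance would mark an embryo in about 1 in 20, or 7.15, if values were normally distributed. Within groups of 4 to 10 embryos, 14 single embryos lay far from the others for a member. Those high in the Oct4 line were Klf4 in Ctrl early ICM replicate 4 (1073 CPM, next 652.1), Klf5 in Ctrl late ICM replicate 2-1 (1069), Klf6 in KO morula replicate 7 (22.4), Klf13 in Ctrl morula replicate 15 (163.6), and Klf17 in Ctrl early ICM replicate 6 (3.65), Ctrl morula replicate 4 (20.4) and MWT late ICM replicate 19 (2.97). Those high in the Sox2 line were Klf2 in KO early ICM replicate 2 (99.8 CPM), Klf3 in KO late ICM replicate 1-1 (86.96), Klf6 in Ctrl late ICM replicate 1-4 (412.2), Klf10 in Ctrl early ICM replicate 10 (135.4), Klf13 in KO late ICM replicate 2-3 (109.1) and Klf17 in KO late ICM replicate 1-5 (2.32). Klf9 in KO late ICM replicate 2-3 was low (186.9). In Sox2-KO late ICMs, 7 of 8 embryos had no Klf17 UMI, so replicate 1-5, with 2 UMIs, was set apart by construction. Because such sets are not normally distributed, and the others were not tested for it, 14 against 7.15 does not show an excess. None of the called KO changes of Klf2 or Klf4 was lost without any 1 embryo.

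The KO effect on a member differed between stages or lines in 8 of 63 tests of the difference, against 2.79% of all gene tests in the same 7 contrasts, all on the log2 scale from the edgeR model. Klf2 moved by -1.51 from morula to early ICM and by -1.17 from early to late ICM in the Oct4 line, and by -1.88 from morula to early ICM in the Sox2 line. In the Oct4 line from early to late ICM, Klf4 moved by -1.34, Klf5 by 1.26 and Klf6 by 1.33. Klf4 differed between the lines, Oct4 minus Sox2, by -1.72 in early and -1.80 in late ICMs.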

How the results depend on the processing

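No called value changed direction. Under alternatives other than leaving out an embryo, 1280 member values kept their side of the call, 22 were no longer called and 3 became called; the Klf2 calls in the 4 ICM comparisons and the Klf4 calls in Oct4-KO ICMs held in all of them. In Oct4-KO late ICMs the number of members called went from 5 to 3 with DESeq2, with the MWT embryos in the fit, with library totals alone and with limma. Without the fold minimum it became 6 of 9 in Oct4-KO late ICMs (31.7% of all genes), 2 in Sox2-KO early ICMs (7.04%), 3 in Sox2-KO late ICMs (13.8%), 2 for Sox2 MWT early ICMs (6.33%), 2 for the line difference in early ICMs (8.12%), 7 for early ICM against morula in both lines (48.0% and 51.7% in the Oct4 and Sox2 lines), 5 for Oct4 late against early ICM (32.4%) and 1 for Sox2 late against early ICM (7.21%). Library totals gave 2 for the Oct4 early ICM minus morula difference and moved the median of all genes by 0.10 for Oct4 Ctrl early ICM against morula and -0.10 for Oct4-KO late ICMs. DESeq2 gave 1 for the Sox2 late minus early difference, and limma 2 of 4 for Oct4 late against early ICM. With 1 embryo left out, 2 to 4 members were called in Oct4-KO early and 3 to 5 in Oct4-KO late ICMs, 1 in the Sox2-KO ICMs and 0 in morulae. The Klf5 call in Oct4-KO late ICMs was lost without Ctrl replicate 1-2, 1-3, 1-4, 1-9, 2-4 or 2-9 or KO replicate 1-2, 1-8, 2-2, 2-5 or 2-6, at 0.89 to 1.00.

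Equal replicate numbers were not taken to pair the embryos, since correlations of same-numbered embryos ran from -0.07 to 0.20. In Sox2 late ICMs, however, 3 of 4 shared numbers correlated best with their own number, a hint from the data. The genes called in the embryos of shared numbers went from 320 without to 638 with the block there, from 157 to 282 in Oct4 morulae, from 227 to 418 in Sox2 early ICMs and from 851 to 834 in Oct4 early ICMs. With the replicate block 0, 2, 1 and 1 members were called in Oct4 morulae, Oct4 early, Sox2 early and Sox2 late ICMs, and Klf3 in Oct4 early ICMs fell to -0.19 (adjusted p = 0.961). The same embryos without the block, an alternative chosen after seeing the data, gave -0.23 for Klf3 and 2 members in Sox2 late ICMs, Klf6 being the added member (1.00). No paired analysis was possible for Oct4 late ICMs and Sox2 morulae because they shared fewer than 2 numbers. Few UMIs lay behind Klf17 in ICMs, at 0 to 18 per group in Ctrl and KO, and behind Klf3 in morulae, at 0 to 15 per embryo. Klf6 ran from 0 to 73 UMIs per Ctrl or KO morula.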
